A study of Mus musculus with 8 samples.

Results

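The 36 genes described here encode proteins of the Z-disc, the M-band and the scaffold around them in the sarcomere, the contractile unit of striated muscle. They were listed by name, with earlier results of these data known. Their probes were found by the RefSeq accession that the array design gives each probe. This gave 36 of the 22909 named genes and 56 of the 32988 named probes on the array, and the brightest probe stood for each gene. By role, 15 genes belong to the Z-disc, 6 to the M-band, 4 are accessory to the thick filament, 3 set the length of the thin filament, 5 act in turnover and signalling, and 3 link the sarcomere to the costamere or the intercalated disc.

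RNA of mouse heart ventricle was hybridised to 8 single-colour arrays, 2 for each of 4 groups: wild-type (WT) mice at birth, WT mice at 1 week, and mice at both ages that were homozygous for the ΔK210 knock-in allele (KI), which removes 1 lysine from Tnnt2, the gene of cardiac troponin T. The series presents the knock-in as a neonatal model of dilated cardiomyopathy and asks how expression differs with genotype at each age. Per the labels' protocols, tissue of 3 ventricles was pooled for a group, but whether both arrays of a group share a pool is not stated, so each standard error and p below reflects differences among arrays only, possibly technical ones. The labels name no other allele or agent for any group.

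The value table and the scanner files, both deposited, name different samples for 3 of the 4 arrays at 1 week, so these 4 arrays go by the letters A to D. In both sources array A was WT. Array B was KI by the value table and WT by its scanner file. Array C was KI in both. Array D was WT by the value table and KI by its scanner file. Comparisons of genotype at 1 week use the value-table samples, with the scanner-file samples beside them, whereas the change with age averaged over both genotypes uses all 8 arrays and has the same size in both. Row 1 of the slide held the birth arrays and row 2 the 1-week arrays, which means that age cannot be told apart from row. Columns 1 and 2 of row 1 were WT and columns 3 and 4 KI, and genotype at birth cannot be told apart from column. Arrays A to D lay in columns 1 to 4 of row 2. By the scanner files genotype at 1 week therefore follows the same columns and cannot be told apart from them. By the value table columns 1 and 4 were WT and columns 2 and 3 KI.

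Between 60.7% and 64.7% of spots were well above background and no spot was saturated. The 75th percentile of the signal, to which each array was scaled, was 439.9 to 466 at birth, 510.6, 523 and 467.7 on arrays A, B and C, and 342.4 on array D. Levels are given as log2 signal relative to that percentile, so that 0 is the 75th percentile of the array, and differences are on the log2 scale with the standard error of limma after ±. A gene was called at an adjusted p (Benjamini-Hochberg, over all 15744 genes tested) under 0.05. All 36 genes passed the filter on dim probes. Of these 35 were well above background on all 8 arrays and Mybphl on 7. All 10 markers of the working ventricular myocyte were well above background on every array. The Tnnt2 probe lay between 7.77 and 8.33 on the 8 arrays, but a probe of this kind does not read a deletion of 1 codon and checks no genotype label.

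The Z-disc anchors the barbed ends of actin filaments through alpha-actinin and the N-terminus of titin, and the M-band crosslinks the thick filaments through myomesins. Around these lattices lie LIM-domain and PDZ-domain adaptors, actin capping and nucleating proteins that set thin-filament length, and ubiquitin ligases that renew the sarcomere. In the heart after birth myofibrils lengthen and align while myocytes stop dividing, and mutations in many of these genes cause cardiomyopathy or skeletal myopathy.

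Promoters of 4 members that changed with age are shown because they hold the matches described here, 2 with a MEF2 match and 2 with MCAT matches. MEF2 and the TEAD proteins that bind MCAT are known regulators of muscle genes. Each is the 250 bases before the gene's start in RefSeq on GRCm38.p6, 5′ to 3′ on the strand of the gene. Xirp2 is at chr2:67445752-67446001, Myom3 at chr4:135759465-135759714, Trim54 at chr5:31116362-31116611 and Pdlim3 at chr8:45885237-45885486, all on the plus strand. Capitals mark the MEF2 consensus in the first 2 sequences and the MCAT letters CATTCC, on either strand, in the other 2.
Xirp2: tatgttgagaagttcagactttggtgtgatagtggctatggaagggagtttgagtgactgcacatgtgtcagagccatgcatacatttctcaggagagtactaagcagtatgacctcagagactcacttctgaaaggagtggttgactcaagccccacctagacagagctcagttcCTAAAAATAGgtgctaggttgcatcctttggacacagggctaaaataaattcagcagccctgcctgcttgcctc
Myom3: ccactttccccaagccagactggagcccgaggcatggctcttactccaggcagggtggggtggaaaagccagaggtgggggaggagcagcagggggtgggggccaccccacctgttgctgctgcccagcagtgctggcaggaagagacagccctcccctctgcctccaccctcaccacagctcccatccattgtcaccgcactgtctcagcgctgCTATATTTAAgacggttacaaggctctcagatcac
Trim54: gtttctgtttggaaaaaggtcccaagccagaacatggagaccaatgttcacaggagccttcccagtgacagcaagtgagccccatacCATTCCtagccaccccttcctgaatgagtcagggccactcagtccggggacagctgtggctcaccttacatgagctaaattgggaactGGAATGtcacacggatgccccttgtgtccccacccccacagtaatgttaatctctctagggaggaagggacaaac
Pdlim3: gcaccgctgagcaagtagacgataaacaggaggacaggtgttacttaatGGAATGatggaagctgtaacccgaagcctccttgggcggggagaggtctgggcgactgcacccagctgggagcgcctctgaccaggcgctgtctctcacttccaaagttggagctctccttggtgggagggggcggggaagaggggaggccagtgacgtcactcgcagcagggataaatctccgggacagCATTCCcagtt

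The MEF2 match lay 74 to 65 bases before the start of Xirp2 and 35 to 26 bases before that of Myom3. In Trim54 the MCAT letters lay 163 to 158 and 75 to 70 bases before the start, and in Pdlim3 201 to 196 and 11 to 6 bases before it. Of the 36 members 29 had an entry in the promoter table, with 40 promoters between them. Myot, Lmod3, Myoz1, Nexn, Xirp1, Tcap and Myom2 had none. Because windows of 1 gene can overlap, as both CArG windows of Ldb3 do around the same letters, matches are counted per gene. Searched on both strands over the same 250 bases, the MEF2 consensus was in 7 of the 29 genes (24.1%), against 3.42% of all 27025 genes with a promoter. The CArG box, the site of serum response factor, was in 5 (17.2%), against 1.62%. The MCAT letters were in 8 (27.6%), against 14.4%, and GATAA in 11 (37.9%), against 25.5%. The E-box CANNTG was in 75.9%, against 69.3%, and TATAAA in 13.8%, against 14.3%. Genes with several promoters have more windows in which to match. Matches of different motifs may overlap, since a MEF2 match can hold TATAAA. A match describes the letters in the window and is no evidence of a bound site. The genes with a MEF2 match were Fhl2, Mybpc3, Myom3, Myoz2, Synpo2l, Ttn and Xirp2, those with a CArG box were Fhl1, Fhl2, Ldb3, Myom1 and Nebl, and those with MCAT were Flnc, Mybpc2, Mylk3, Nebl, Pdlim3, Tmod1, Trim54 and Trim63. With age over both genotypes, only Xirp2 and Myom3 of the MEF2 genes were called, and both rose. Of the CArG genes Fhl1 and Ldb3 fell and the rest were not called. Of the MCAT genes Mybpc2 and Trim54 rose, Flnc, Pdlim3 and Tmod1 fell, and the rest were not called.

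The first week after birth moved many of these genes, in both directions. Over both genotypes 16 of the 36 members were called by limma, 44.4% against 29.3% of all genes tested: 9 rose and 7 fell, where 14.8% of all genes rose and 14.5% fell. With the scanner-file samples 18 were called, against 30% of all genes. The 9 that rose were Xirp2, Myot, Mybpc2, Trim54, Tcap, Myom3, Lmod3, Cmya5 and Klhl31. The 7 that fell were Myoz1, Pdlim3, Tmod1, Flnc, Smpx, Fhl1 and Ldb3. The median change was -0.12 over the members and -0.03 over all genes, and the median size without sign was 0.41 against 0.26. All 4 arrays of 1 age lay above all 4 of the other for 16 members, 9 higher and 7 lower at 1 week, against 35.6% of all genes (16.2% higher and 19.4% lower). Leaving out array A gave 24 members called, against 35.3% of all genes. Leaving out array B gave 10, against 18.5% of all genes, and leaving out WT replicate 1 at birth also gave 10, against 19.7%, so the counts of members and of all genes moved together. With quantile normalization 11 rose and 5 fell (29.1% of all genes called). With the background corrected by normexp 9 rose and 11 fell (29.9%). Xirp2, Myot, Mybpc2, Trim54, Tcap, Myom3, Lmod3, Myoz1, Pdlim3 and Smpx were called in each of 20 other processing settings. These include the choice of probes saturated on no array, which could not differ from the main setting because no spot was saturated.

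Markers of other cells moved with age as well. The summed signal of 8 fibroblast markers, in multiples of the 75th percentile, was 230 to 275 at birth and 432 to 561 at 1 week. That of 7 endothelial markers lay between 125 and 132 at birth and between 164 and 228 at 1 week. The 10 ventricular myocyte markers, in contrast, summed to between 2250 and 2400 at birth and between 2330 and 2490 at 1 week. The part of these markers in the changes below was not tested, and in bulk tissue fewer cells of a type and less RNA per cell cannot be told apart. Centred on 10 myocyte reference genes in place of the 75th percentile, 18 members were called, 11 higher and 7 lower, against 25.4% of all genes.

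**Figure D1:**
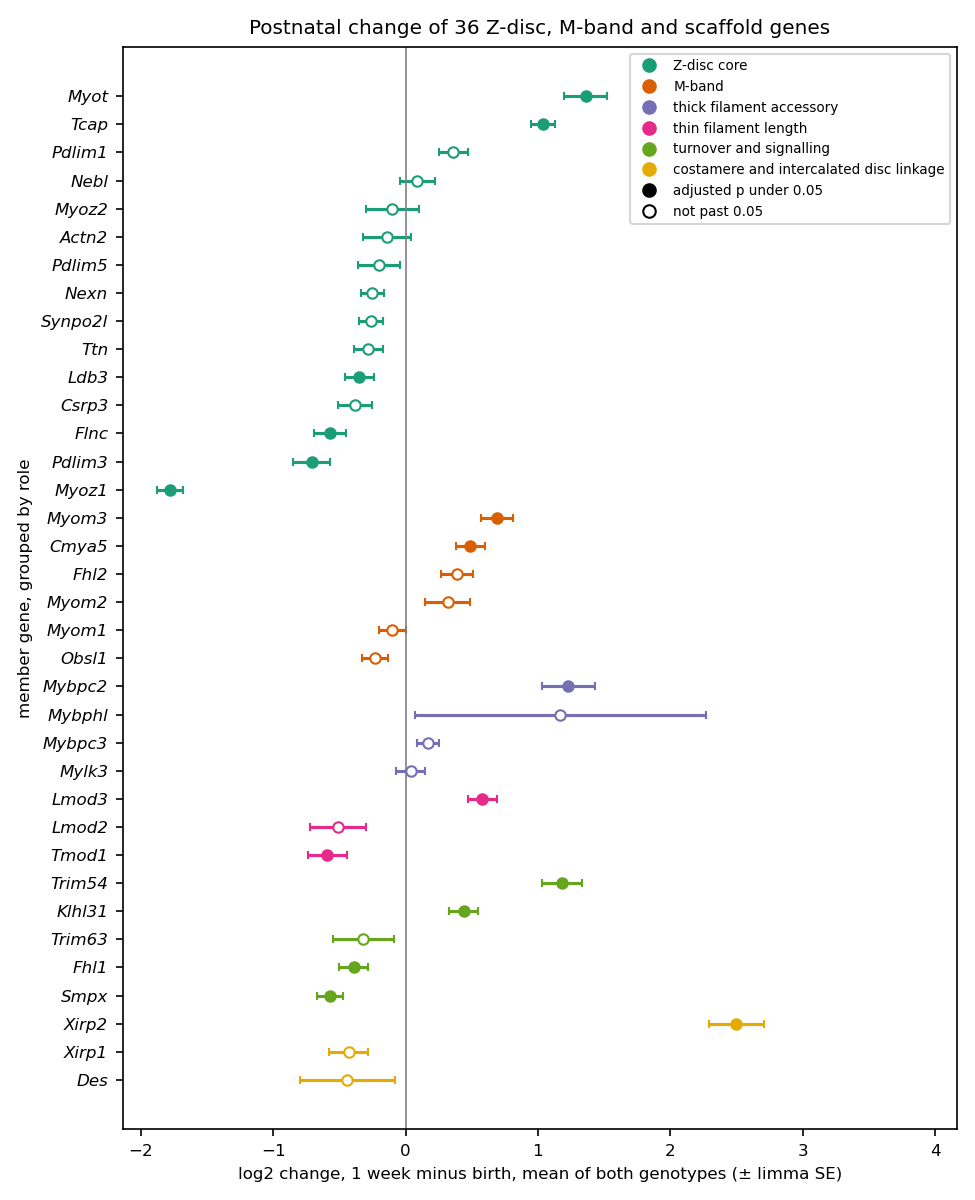
log2 change from birth to 1 week averaged over both genotypes (x axis) for each of the 36 genes (y axis), grouped by role; points are limma estimates, bars are ± 1 standard error, and filled points passed an adjusted p of 0.05. Xirp2 lies farthest to the right at +2.50 and Myoz1 farthest to the left at -1.78, and Z-disc genes lie on both sides of 0.

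Among the 15 Z-disc genes 2 rose and 4 fell (40%, against 29.3% of all genes). Myot encodes myotilin, which bundles actin at the Z-disc. In newborn ventricle its level was -2.48 and -2.46 in WT and -3.03 and -2.88 in KI, and it reached -1.19, -1.13, -1.20 and -1.88 on A, B, C and D. Every 1-week array lay above every birth array, with array D the lowest at 1 week. The rise was +1.36 ± 0.16, or 2.57-fold (95% interval 0.99 to 1.73, limma adjusted p = 0.0012).

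Tcap encodes telethonin, which caps the N-termini of titin at the edge of the Z-disc. Its level was 5.83 and 5.80 in WT and 6.08 and 6.04 in KI at birth, then 6.73, 7.35, 7.09 and 6.76 on arrays A to D. Both ages stood apart, with arrays B and C above A and D at 1 week. Tcap rose by 1.04 ± 0.09, or 2.06-fold (adjusted p = 0.000474).

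Myoz1 encodes calsarcin-2, a calcineurin-binding Z-disc protein best known from fast skeletal fibres. It stood at -0.26 and -0.45 in WT and 0.18 and -0.04 in KI at birth, then at -2.28, -1.54, -1.44 and -2.43 on arrays A to D. No 1-week array reached the lowest birth array. The fall was -1.78 ± 0.10, or 3.44-fold (adjusted p = 0.000112), while Myoz2, the calsarcin of heart and slow fibres, differed by -0.10 ± 0.20 (adjusted p = 0.74; 95% interval -0.58 to 0.38).

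Pdlim3 encodes ALP, an adaptor with a PDZ and a LIM domain that binds alpha-actinin. The 2 WT arrays at birth gave 3.93 and 3.60, the 2 KI arrays 3.67 and 3.41, and arrays A to D 2.80, 2.80, 3.03 and 3.14. The ages did not overlap, and arrays C and D were the highest at 1 week. Pdlim3 fell by 0.71 ± 0.14 on the log2 scale (adjusted p = 0.00934).

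Flnc, which encodes the actin crosslinker filamin C, fell from between 4.95 and 5.55 at birth to between 4.56 and 4.96 at 1 week (-0.57 ± 0.12, adjusted p = 0.0157); the ages overlapped slightly, since array C lay at 4.96 and WT replicate 2 at birth at 4.95. Ldb3 encodes cypher, another PDZ and LIM adaptor of alpha-actinin. It had 5.50 and 5.24 in WT and 5.46 and 5.41 in KI at birth, then 4.92, 5.28, 5.34 and 4.65 on arrays A to D. Its change of -0.35 ± 0.11 was called with the value-table samples (adjusted p = 0.0444) and not with the scanner-file samples (0.167), and it was called in 7 of those 20 settings.

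The other 9 Z-disc genes did not pass. Titin (Ttn), the spring that runs from Z-disc to M-band, differed by -0.28 ± 0.11 (adjusted p = 0.0873), and alpha-actinin 2 (Actn2), the main crosslinker of the Z-disc, by -0.14 ± 0.18 (0.569). Csrp3, the muscle LIM protein, differed by -0.38 ± 0.13 (0.0587) and passed with the scanner-file samples (0.0353). Pdlim1, a further adaptor of the ALP family, differed by +0.36 ± 0.11 (0.056) and also passed with the scanner-file samples (0.0387). Nexilin (Nexn) at -0.25, Synpo2l at -0.26, Pdlim5 at -0.20, nebulette (Nebl) at +0.09 and Myoz2 at -0.10 completed the group. Array D was the lowest of all 8 arrays for 7 of these 9 genes, all but Pdlim1 and Nebl. How often this held over all genes was not counted.

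**Figure D2:**
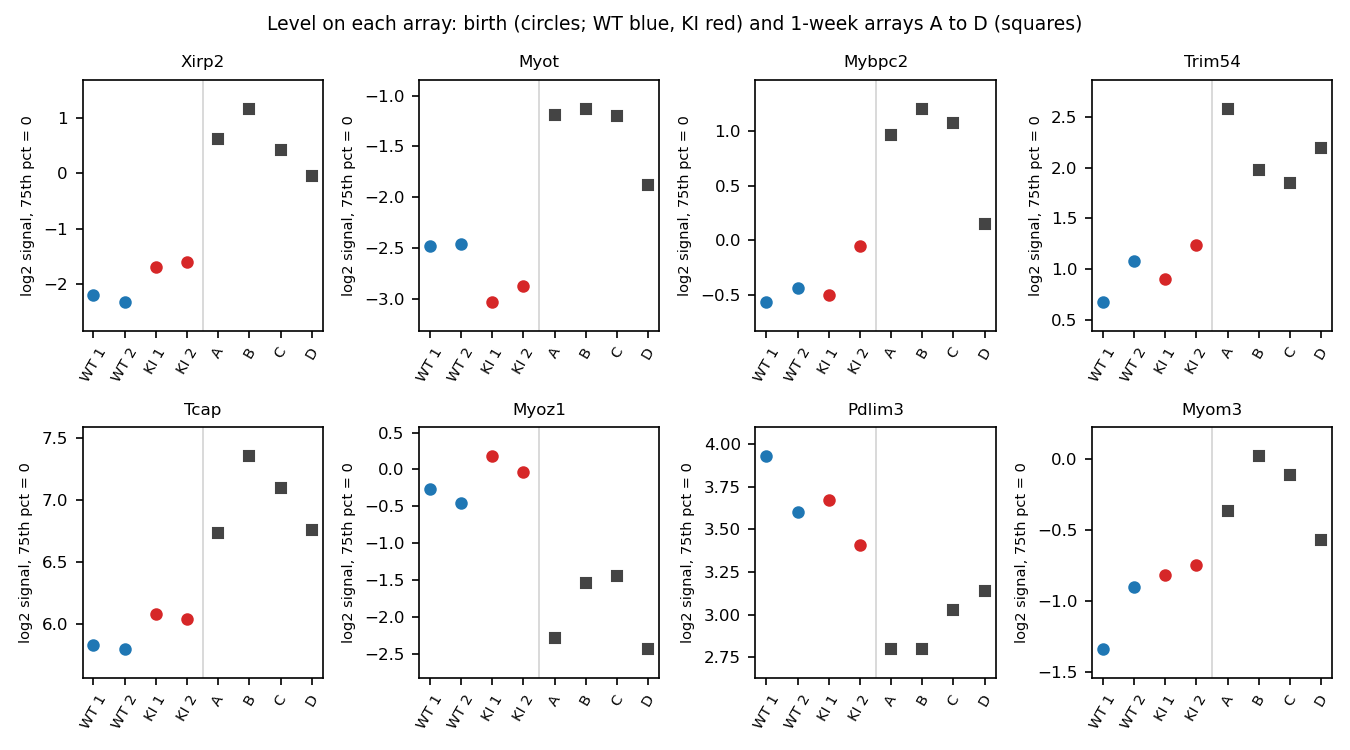
Level on each of the 8 arrays (x axis; birth WT and KI as circles, 1-week arrays A to D as squares because their genotype differs between the value table and the scanner files) of the 8 called genes with the largest changes; y axis, log2 signal with the array's 75th percentile at 0, each panel with its own scale. In every panel the 4 squares lie all above or all below the 4 circles, and array D is the lowest square for Xirp2, Myot, Mybpc2, Myoz1 and Myom3.

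Of the 6 M-band genes 2 rose and none fell by the brightest probe (33.3%, against 29.3% of all genes). Myom3, a myomesin known from slow skeletal fibres, had levels of -1.34 and -0.90 in WT and -0.82 and -0.75 in KI at birth, then -0.37, 0.02, -0.11 and -0.57 on arrays A to D. All 1-week arrays lay above all birth arrays, array D by the least. It rose by 0.69 ± 0.12, or 1.62-fold (adjusted p = 0.00695). Cmya5, which encodes myospryn, a large partner of desmin, alpha-actinin and titin, rose by 0.49 ± 0.11 (adjusted p = 0.0202), from between 2.99 and 3.41 to between 3.37 and 3.83.

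The 2 myomesins usual in the heart moved less. Myom1 differed by -0.10 ± 0.10 (adjusted p = 0.459) and Myom2 by +0.32 ± 0.17 (0.197). Obsl1, an obscurin-like linker between myomesin and titin, differed by -0.23 ± 0.10 (0.125), and Fhl2, a LIM protein that binds titin, by +0.39 ± 0.12 (0.0543). At 1 week Obsl1 had 4.61, 4.68, 4.53 and 4.42 on arrays A to D. A second, dimmer Obsl1 probe lay between -0.35 and -0.29 at birth. On arrays A to D that probe had -0.60, -0.68, -1.11 and -1.24, without overlap between the ages.

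Of the 4 thick-filament accessory genes, 1 rose (25%, against 29.3% of all genes). Mybpc2 encodes the fast skeletal form of myosin-binding protein C. It lay at -0.56 and -0.44 in WT and -0.50 and -0.05 in KI at birth, then at 0.96, 1.20, 1.07 and 0.15 on arrays A to D. Arrays A, B and C lay together well above the birth arrays, and array D lay just above them. The rise was +1.23 ± 0.20, or 2.35-fold (adjusted p = 0.00442). The cardiac form, Mybpc3, a leading gene of hypertrophic cardiomyopathy, lay between 9.05 and 9.19 at birth and between 9.21 and 9.40 at 1 week, without overlap, but its difference of +0.17 ± 0.08 did not pass (0.165). Mylk3, the cardiac kinase of myosin light chain, differed by +0.04 ± 0.11 (0.789; 95% interval -0.22 to 0.30).

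Because several of the genes that moved most are known from skeletal muscle, markers of that tissue are given beside them. Of 16 skeletal muscle markers 9 to 11 were well above background on an array. Their summed signal lay between 235 and 276 at birth and between 250 and 283 at 1 week, but 84.8% to 95.8% of it came from Myh8, the perinatal myosin heavy chain. Without Myh8 the other 15 summed to between 22.4 and 40.7 at birth. At 1 week they summed to 11.3 on array A and to 20.3, 21.2 and 23.5 on B, C and D. Myl1 was the brightest of the 15 on every array but A. It lay at 2.02 on array A and between 3.76 and 5.03 elsewhere, so this sum is weighted to Myl1. Of the 10 that were tested over both genotypes, Myh3 (-1.83 ± 0.46), Tnni2 (-1.15 ± 0.16) and Mylpf (-0.76 ± 0.14) fell and Cacna1s (+0.94 ± 0.10) rose, with a median of -0.37. Myh8, Tnnt3, Tnni2, Tnnc2, Mylpf, Myl1, Pvalb, Cacna1s and Atp2a1 were well above background on all 8 arrays, Myl1 between 2.02 and 5.03. Myh2, Myh4, Myod1 and Ryr1 were well above background on none, Myh1 and Myog on 1 and Myh3 on 4. The part of these markers in the changes of the members was not tested.

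Mybphl, a relative of myosin-binding protein H known from atrial and conduction myocytes, had the widest spread of all members. Its level was -2.63 and -2.09 in WT and -1.23 and -2.93 in KI at birth, then -4.76, 0.08, -0.25 and 0.75 on A, B, C and D. Array A, the array on which Mybphl was not well above background, lay below all birth arrays, and B, C and D lay above them. The difference of +1.17 ± 1.1 between the ages did not pass (adjusted p = 0.454).

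Several atrial markers were also low on array A. All 10 on the list were well above background on every array, but their summed signal was 72.9 on array A, against 415 to 490 on B, C and D and 443 to 592 at birth. The sum is weighted to the brightest markers, and Nppa and Myl4 were the brightest on every array. Dkk3 at 2.41, Tbx5 at 1.04 and Adm at 0.22 on array A lay within the range of the other 7 arrays. Nr2f2 at 0.69, Stard10 at -0.66 and Upk3b at -2.33 were lowest there by small margins. Myl7, the atrial regulatory light chain, lay at 2.08 on array A and between 5.23 and 6.91 on the other 7. Sln, which encodes the atrial calcium-pump regulator sarcolipin, lay at -1.06 on array A and between 1.16 and 5.03 elsewhere. Of 8 adipocyte markers all were well above background on arrays B, C and D and 3 on each of the other 5. Ucp1, the uncoupling protein of brown fat, lay at 0.52, 1.23 and 2.40 on B, C and D and between -7.28 and -6.28 elsewhere, not well above background. The part of these tissues in the levels of Mybphl or of any other member was not tested.

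**Figure D3:**
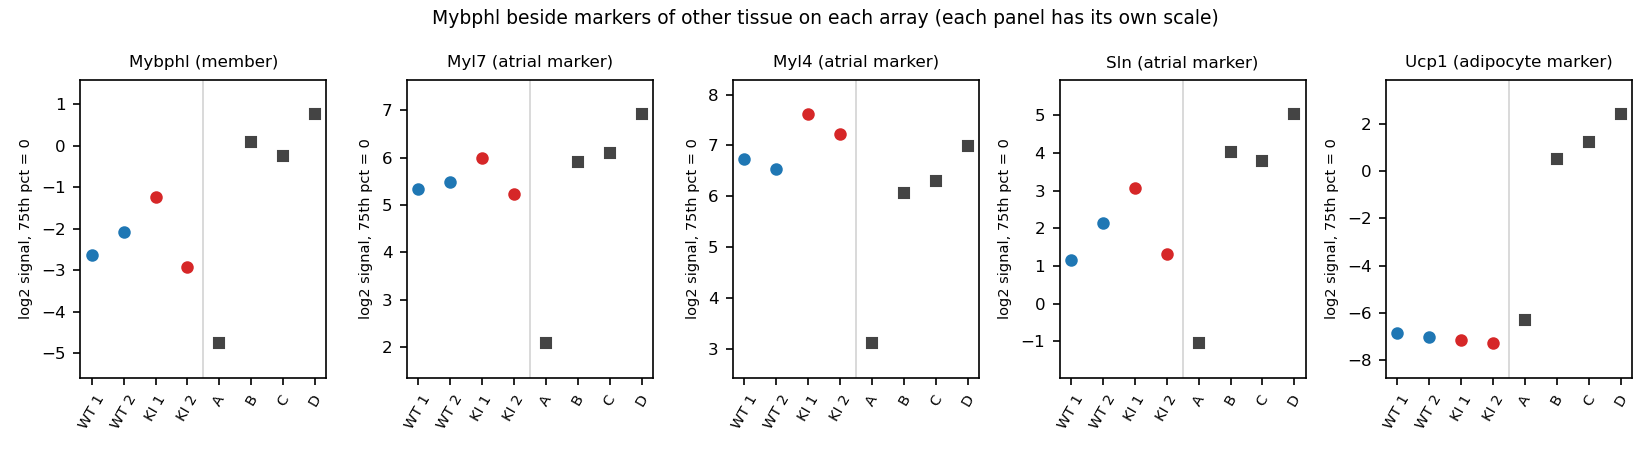
Levels of Mybphl, 3 atrial markers and 1 adipocyte marker on each array (x axis; circles are birth arrays, WT blue and KI red, squares the 1-week arrays A to D); y axis, log2 signal with the array's 75th percentile at 0, on a separate scale in each panel. Mybphl, Myl7, Myl4 and Sln are lowest on array A, and Ucp1 is above background on arrays B, C and D alone.

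The 3 genes of thin-filament length split, with 1 called higher and 1 lower (66.7%, against 29.3% of all genes). Lmod3, a leiomodin that nucleates actin and is best known from skeletal muscle, had 3.99 and 4.06 in WT and 3.80 and 3.82 in KI at birth, then 4.70, 4.56, 4.40 and 4.32 on arrays A to D. The ages did not overlap. It rose by 0.58 ± 0.11 (adjusted p = 0.00929). Tmod1, the tropomodulin that caps pointed ends and opposes the leiomodins, had 3.49, 3.49, 3.61 and 3.45 on the birth arrays and 2.98, 3.27, 3.11 and 2.34 on arrays A to D. The birth arrays lay close together, and array D was the lowest at 1 week. Tmod1 fell by 0.59 ± 0.15 (adjusted p = 0.0269) and was called in 12 of those 20 settings. Lmod2, the cardiac leiomodin, differed by -0.51 ± 0.21 and did not pass (0.11); its lowest array was D at -1.01.

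Among the 5 genes of turnover and signalling 2 rose and 2 fell (80%, against 29.3% of all genes). Trim54 encodes MuRF3, a ubiquitin ligase of Z-disc, M-band and microtubules. It had 0.68 and 1.08 in WT and 0.90 and 1.24 in KI at birth, then 2.58, 1.98, 1.85 and 2.19 on arrays A to D. The ages did not overlap, and array A was the highest. The rise was +1.18 ± 0.15, or 2.26-fold (adjusted p = 0.00174). Trim63, which encodes the related ligase MuRF1, differed by -0.32 ± 0.23 (0.337), from between 4.28 and 4.61 at birth to 4.43, 4.56, 3.91 and 3.49 on arrays A to D.

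Klhl31, a kelch-repeat protein needed for skeletal sarcomere structure, rose by 0.44 ± 0.11 (adjusted p = 0.0262), from between 2.60 and 2.70 to between 2.83 and 3.23. The rise was called in 10 of those 20 settings. A second, dimmer Klhl31 probe moved less, by +0.11, and array D at -0.68 lay below all birth arrays for it. Smpx, a small muscle protein at the costamere, had 5.13 and 4.86 in WT and 5.46 and 5.42 in KI at birth, then 4.48, 4.87, 4.95 and 4.31 on arrays A to D. Arrays B and C reached the lower WT array at birth, so the ages overlapped. It fell by 0.57 ± 0.10 (adjusted p = 0.00665). Fhl1, a LIM protein of stretch signalling whose mutations cause myopathy, had 5.08, 4.77, 5.37 and 5.26 at birth against 4.55, 4.72, 4.98 and 4.65 on arrays A to D, a fall of -0.39 ± 0.11 (adjusted p = 0.0389) that was called in 8 of those 20 settings.

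Of the 3 linkage genes 1 rose (33.3%, against 29.3% of all genes), by the most of any member. Xirp2 encodes an actin-binding protein of the intercalated disc and Z-disc. Its level was -2.20 and -2.32 in WT and -1.70 and -1.61 in KI at birth, then 0.62, 1.16, 0.42 and -0.06 on arrays A to D. All 1-week arrays stood far above all birth arrays, D the lowest of them. The rise was +2.50 ± 0.21, or 5.64-fold (95% interval 2.00 to 2.99, adjusted p = 0.000377). Its relative Xirp1, also an intercalated-disc protein, moved the other way, by -0.43 ± 0.15 (0.0741), and passed with the scanner-file samples (0.0206).

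Desmin (Des), the intermediate filament that ties Z-discs to each other and to the membrane, was even at birth, with 3.92 and 3.93 in WT and 3.83 and 4.01 in KI. At 1 week arrays A and B gave 4.10 and 4.08, and C and D gave 3.34 and 2.40. Its mean difference of -0.44 ± 0.36 did not pass (0.387). Arrays A and B lay above, and C and D below, the birth arrays.

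Within WT alone 11 members were called from birth to 1 week, 6 higher and 5 lower (30.6%, against 19.0% of all genes, 10% higher and 8.96% lower). They were Trim54, Tcap, Xirp2, Myot, Mybpc2 and Myom3 upward and Myoz1, Smpx, Pdlim3, Ldb3 and Tmod1 downward. Within KI alone 8 were called, 7 higher and 1 lower (22.2%, against 10.6% of all genes, 5.86% higher and 4.75% lower): Tcap, Xirp2, Myot, Mybpc2, Lmod3, Myom3 and Trim54 upward and Myoz1 downward. With the scanner-file samples 11 were called in WT (9 higher, 2 lower; of all genes 12.7%, 6.98% higher and 5.67% lower) and 8 in KI (4 and 4; of all genes 15.3%, 8.38% and 6.88%), among the latter Obsl1, Xirp1 and Des downward at adjusted p of 0.0473, 0.0157 and 0.0498. Leaving out array B, array C or any 1 of the 4 birth arrays left 4 to 6 called in WT, against 7.58% to 15% of all genes, and leaving out array B, array C or either KI array at birth left 4 in KI, against 3.56% to 5.54%. In WT the split was 3 higher and 5 lower with median centring (17.5% of all genes called), 8 and 4 with myocyte centring (14.9%) and 6 and 8 with normexp (19.9%). A call in 1 genotype and not in the other does not show that they differ; the test of the difference itself is given after the genotype comparisons.

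At birth no member passed the test between the genotypes. limma called 0 of 36 members (0.0381% of all genes), and 3 had an unadjusted p under 0.05, against 4.71% of all genes (with the scanner-file samples 0 called and 2 unadjusted, against 4.30%). The median KI minus WT difference was 0.08 over the members and 0.00 over all genes, with 22 of 36 positive, against 50.5% of all genes. The 2 KI arrays lay above both WT arrays for 14 members and below both for 8, against 31.9% of all genes in either direction (16.7% above and 15.2% below). The 5 smallest p belonged to Smpx, Myoz1, Fhl1, Obsl1 and Myot.

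Smpx, at 5.13 and 4.86 in WT and 5.46 and 5.42 in KI, differed by +0.44 ± 0.14 (adjusted p = 0.803). Myoz1 differed by +0.43 ± 0.14 (0.853) and Fhl1 by +0.38 ± 0.16 (1). Obsl1 had 4.55 and 4.71 in WT and 4.87 and 5.05 in KI, a difference of +0.33 ± 0.14 (1). Myot, in the opposite direction, differed by -0.48 ± 0.22 (1). The groups did not overlap for any of these 5, but none passed. The 95% interval of the difference was -0.37 to 0.34 for Ttn, -0.06 to 0.56 for Tcap, -0.32 to 0.28 for Synpo2l and -0.12 to 0.53 for Myom1. For Des it was -1.22 to 1.21.

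At 1 week the direction of the genotype difference depended on which record names the arrays. With the value-table samples limma called 0 of 36 members (0.0508% of all genes), 6 had an unadjusted p under 0.05 (7.06% of all genes), and 29 of 36 differences were positive (54.4% of all genes), with a median of 0.26 against 0.03 over all genes. With the scanner-file samples it also called 0 (0.00635% of all genes), 7 had an unadjusted p under 0.05 (9.87%), and 5 of 36 were positive (50.6%), with a median of -0.21 against 0.00. The arrays of KI and WT did not overlap for 15 members higher and 1 lower in KI by the value table, against 37.9% of all genes (19.8% higher and 18.0% lower), and for 2 higher and 16 lower by the scanner files, against 40.1% (20.2% and 19.9%).

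Array D, which is WT in the value table and KI in its scanner file, was the lowest 1-week array for 27 of 36 members. Array B, which also changes genotype, was the highest for 17. The same was not counted over all genes, so these counts do not set the members apart from other genes. The median level of the 36 members was 4.46, 4.56, 4.08 and 3.81 on arrays A to D and between 4.12 and 4.23 on the birth arrays. Without array D the median genotype difference was 0.04 with 19 positive by the value table and -0.05 with 13 positive by the scanner files. Centred on the 10 myocyte reference genes it was 0.20 with 29 positive and -0.06 with 13 positive. The share of all genes with a positive difference was not counted in these settings. The part of the lower signal of array D in these differences was not tested.

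**Figure D4:**
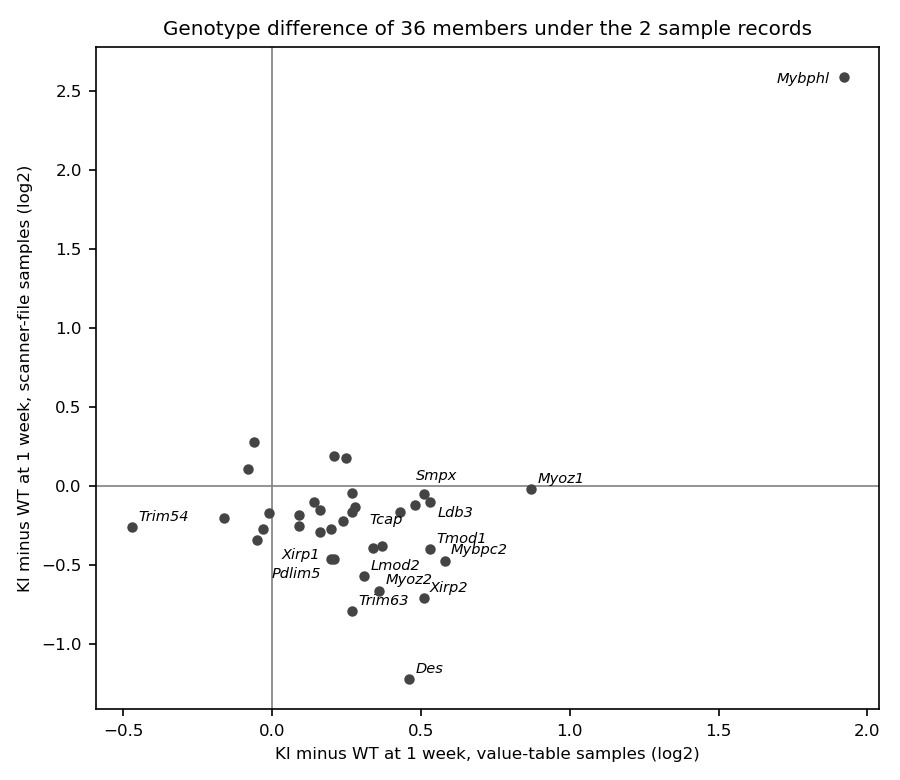
KI minus WT difference at 1 week (log2) for each of the 36 genes with the value-table samples (x axis) and with the scanner-file samples (y axis); genes with a difference over 0.45 in either are named. Most points lie to the right of 0 on the x axis and below 0 on the y axis, Myoz1 is farthest right but for Mybphl, and Des is the lowest.

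Of the 5 smallest p with the value-table samples, Myoz1 was +0.87 ± 0.14 (95% interval 0.52 to 1.21, unadjusted p = 0.000547, adjusted p = 0.239), from -2.28 and -2.43 on A and D to -1.54 and -1.44 on B and C. The 2 pairs did not overlap, and the scanner-file samples gave -0.02. Smpx was +0.51 ± 0.14 (adjusted p = 0.552) and Tcap +0.48 ± 0.13 (0.552). Ldb3 had 4.92 and 4.65 on A and D and 5.28 and 5.34 on B and C (+0.53 ± 0.15, adjusted p = 0.565). Tmod1 was +0.53 ± 0.21 (0.689). By the scanner files Ldb3 was -0.10, Smpx -0.05, Tcap -0.12 and Tmod1 -0.40, so that all 5 changed sign.

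With the scanner-file samples the difference lowest in KI was that of Des, at -1.22 ± 0.28 (adjusted p = 0.396), from 4.10 and 4.08 on A and B to 3.34 and 2.40 on C and D. Without array C, an alternative added after seeing the data, array D alone stood for KI. Array D had both the lowest level of Des and the lowest 75th percentile of the signal. Trim63 was -0.79 ± 0.17 (0.396), Xirp2 -0.71 ± 0.23 (0.457) and Myoz2 -0.66 ± 0.19 (0.432). By the value table these 4 were +0.46, +0.27, +0.51 and +0.36. Trim54 was negative in both, at -0.47 and -0.26. Fhl1 and the brightest probe of Flnc were positive in both, at +0.25 and +0.18 and at +0.21 and +0.19. None of them was called. The second Flnc probe had 0.52, 0.91, 0.38 and -0.52 on arrays A to D. Its mean was higher in KI by the value table and lower in KI by the scanner files. Mybphl was +1.92 ± 1.56 by the value table (0.748) and +2.59 ± 1.44 by the scanner files (0.597), with array A alone far below the other 3.

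No member passed the test of whether its change with age differed between the genotypes. limma called 0 of 36 members for age by genotype (0.00635% of all genes), with 1 unadjusted p under 0.05 by the value table (4.85% of all genes) and, by the scanner files, 0 called and 8 unadjusted (6.29%). The difference was positive for 27 members by the value table (53.5% of all genes), with a median of 0.14, and for 5 by the scanner files (48.1%), with a median of -0.30. Without array D 15 and 11 were positive, and the share of all genes was not counted there. Myot had the smallest p: its rise was 0.94 in WT and 1.79 in KI, a difference of +0.85 ± 0.31 (unadjusted p = 0.0291, adjusted p = 0.888), and +0.10 by the scanner files. Trim54 rose by 1.51 in WT and 0.85 in KI, a difference of -0.66 ± 0.30 (0.888), and -0.45 by the scanner files. Ldb3 at +0.47 ± 0.21, Myoz1 at +0.44 ± 0.20 and Tmod1 at +0.49 ± 0.30 (each 0.888) turned to -0.16, -0.45 and -0.44 by the scanner files. Centring each array on its median, which moved the median of all genes by over 0.1 in this comparison, to 0.17, left 0 called.

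Probes of 1 gene did not always move together, which was examined after seeing the data as the difference between each further probe and the brightest probe of its gene. Over 6547 such pairs limma called 148 for a change with age (2.26%; 207 or 3.16% with the scanner-file samples), and the median size was 0.19. No member had probes that moved in opposite directions past 0.5 each. Pdlim5 encodes ENH, an adaptor known to be made in long forms with LIM domains and short forms without. The probe designed on NM_001190852 lay below the brightest probe, designed on NM_019809, by -1.69 and -1.72 in WT and -2.09 and -2.00 in KI at birth, then by -3.32, -3.43, -3.0 and -3.20 on arrays A to D.

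The 2 ages did not overlap in this difference. It changed by -1.37 ± 0.13, or 2.58-fold (adjusted p = 0.0045; 0.0017 with the scanner-file samples), and lay between -1.26 and -1.47 without each 1-week array in turn. A second probe designed on NM_019809 held its distance from the brightest, with a change of 0.00 ± 0.10. At the level of the probes themselves, the one on NM_001190852 had 2.80, 2.60, 2.69 and 2.51 at birth against 1.17, 1.19, 1.24 and 0.74 on arrays A to D, whereas the brightest had 4.49, 4.32, 4.77 and 4.51 and then 4.49, 4.62, 4.24 and 3.94. Which part of the transcripts each probe covers was not analysed here.

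In Ldb3 the probe on NM_001039076 gained on that on NM_011918 by 0.62 ± 0.13 (adjusted p = 0.0657; 0.0399 without array A), which did not pass. Its own level had 3.36, 3.33, 3.45 and 3.65 at birth against 4.0, 3.78, 3.53 and 3.52 on arrays A to D. The 2 further Ttn probes gained on the brightest by 0.45 ± 0.14 and 0.40 ± 0.17 (0.13 and 0.219). None of these pairs passed for genotype at either age.

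**Figure D5:**
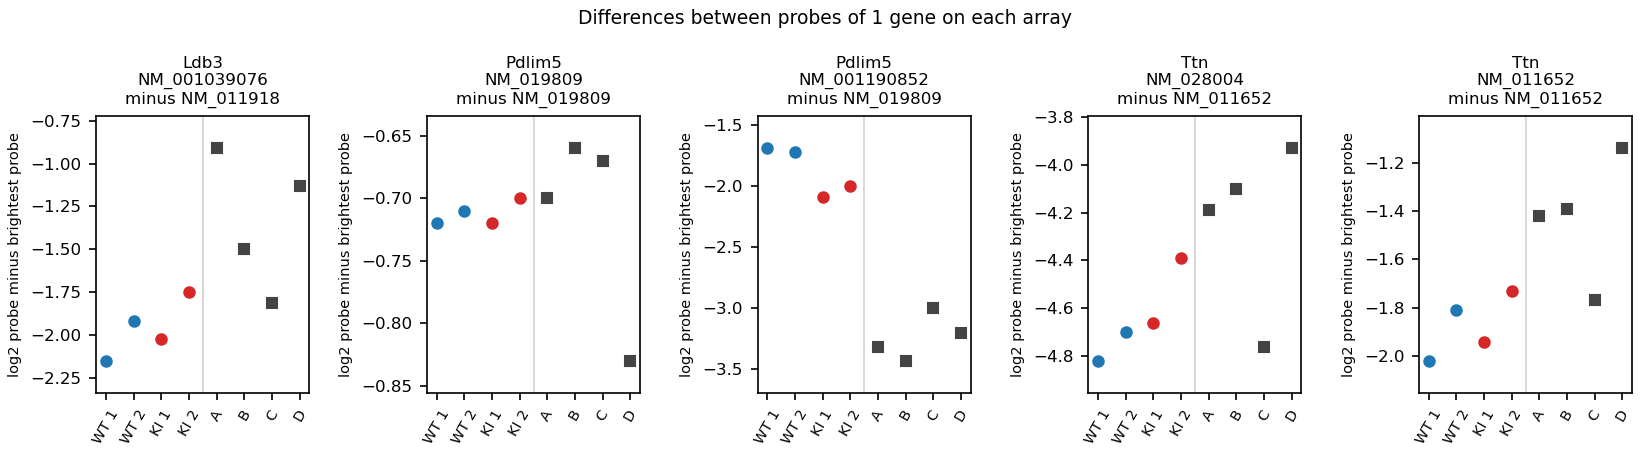
Level of each further probe minus that of the brightest probe of the same gene (y axis, log2, each panel with its own scale) on the birth arrays (circles, WT blue and KI red) and on arrays A to D (squares) for Ldb3, Pdlim5 and Ttn; the panel titles name the transcript on which each probe was designed. Only in the Pdlim5 panel for NM_001190852, where the change of -1.37 passed, do the squares all lie below the circles.

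Other genes of the sarcomere scaffold, listed by function with earlier results of these data known, were read for comparison. Of 49 on the array 46 were tested. Over both genotypes 14 rose and 8 fell (47.8%, against 29.3% of all genes, 14.8% higher and 14.5% lower). The median change was 0.02, against -0.03 over all genes. Those that rose most were Ankrd23 (+2.12 ± 0.23), a titin-binding ankyrin-repeat protein of stretch signalling, Sync (+2.07 ± 0.17), which encodes syncoilin, a partner of desmin, Synpo2 (+1.41 ± 0.13), an actin-bundling Z-disc protein, Pdlim4 (+1.26 ± 0.10) and the tropomodulin Tmod4 (+1.09 ± 0.11). Those that fell most were Mybpc1 (-1.01 ± 0.10), the slow form of myosin-binding protein C, nebulin (Neb, -0.98 ± 0.20, which did not pass with the scanner-file samples at 0.135), Csrp1 (-0.75 ± 0.11), Trim55 (-0.66 ± 0.11), which encodes MuRF2, and Mlip (-0.56 ± 0.15). Their adjusted p lay between 0.000367 and 0.0312. In WT alone 14 rose and 5 fell (41.3%, against 19.0% of all genes), and in KI alone 8 rose and 3 fell (23.9%, against 10.6%).

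Further relatives of the members were picked out after their values were seen, to set each family side by side. The 3 MuRF ligases gave changes of +1.18 for Trim54, -0.66 for Trim55 and -0.32 for Trim63, of which the first 2 passed. In the myosin-binding protein C family Mybpc2 rose, Mybpc1 fell and Mybpc3 did not pass. Among tropomodulins Tmod1 fell while Tmod2 (+0.93 ± 0.12), Tmod3 (+0.64 ± 0.15) and Tmod4 rose. Among the adaptors with a PDZ and a LIM domain Pdlim3 and Ldb3 fell, Pdlim2 (+0.65 ± 0.09), Pdlim4 and Pdlim7 (+0.86 ± 0.12) rose, and Pdlim1 and the brightest probe of Pdlim5 did not pass. For genotype 0 of these 46 genes were called at birth, at 1 week or for age by genotype, with 3, 3 and 1 at an unadjusted p under 0.05 by the value table, against 4.71%, 7.06% and 4.85% of all genes. By the scanner files 0 were called and 3, 6 and 5 had such a p, against 4.30%, 9.87% and 6.29%. Neb had the smallest p at 1 week by the value table, at +1.43 ± 0.29 (adjusted p = 0.363), and +0.03 ± 0.62 by the scanner files.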

How the data were processed

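Per the file headers and the submitters' processing notes, the authors scanned single-colour Agilent arrays and extracted spot signals with Feature Extraction, version 11.0.1.1 in the headers and 9.1 in the notes, on probes annotated to mm9. The deposited files hold the processed intensity and the median intensity of each spot, with the authors' flags for spots well above background, saturated or outlying, which are other values of 0 or 1. The deposited value table gave the same intensities to a relative tolerance of 1e-04 over 56305 probes, but 3 of its 4 columns at 1 week held the array that the scanner files give to another sample.

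From these, spots of a probe were averaged, controls and outlier flags left out, and log2 intensity taken minus the array's 75th percentile over non-control probes. A gene was read by its brightest probe, named through its RefSeq accession, and tested if well above background on both arrays of a group. All 8 arrays were fitted with limma 3.58.1 in R 4.3.3 (4 group means, eBayes, Benjamini-Hochberg over 15744 genes, or 15757 with the scanner-file samples). Python 3.11.15 read the promoters. The fit was tested on simulated data for KI against WT at birth: among 15744 genes, limma called 38 of 100 that were altered by a factor of 2 and 78 of 100 altered by a factor of 4, and 5 that were not altered. No count of molecules underlies these values, and 2 arrays per group limit their precision.

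Values on every array are given for members called between genotypes, the 5 smallest p in each genotype comparison, the 8 largest called changes with age, and members whose probes disagree in direction past 0.5. Of the other scaffold genes the 5 largest called changes in each direction are named. Other values shown were picked after they were seen. The members and lists were chosen with earlier results of these data known. Alternatives covered the record of samples, background correction (normexp, offset 50, on the median signal because no mean signal was used here), scaling, filter, probe choice, prior, replicate block, arrays in the fit and each array left out. The replicate numbers were checked for pairing: deviations of same-numbered arrays correlated between -0.137 and 0.286, so the numbers were not taken as pairs.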

Additional observations from a re-analysis of the deposited data

How the results depend on the processing

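Of the values of named members under the alternatives, with those of the Pdlim5 and Ldb3 probe differences, 986 kept their direction and side of the threshold. Of the rest 155 lost the call, 35 gained it and 9 reversed. Values for genotype and for age by genotype were called in no setting and count as kept unless they reversed. The 986 include the choice of probes saturated on no array, which could not differ from the main setting. With the scanner-file samples the 1-week genotype difference reversed for Ldb3 (-0.10), Myoz1 (-0.02), Smpx (-0.05), Tcap (-0.12) and Tmod1 (-0.40), and age by genotype reversed for Ldb3 (-0.16), Myoz1 (-0.45) and Tmod1 (-0.44). The change of Des with age in KI, -0.21, lay between -0.59 and +0.16 with 1 array left out, positive without array C. Members called in WT fell from 11 (of all genes 19.0%) to 4 with no filter on dim probes (8.15%) and to 4 with only the arrays compared (9.24%). Those in KI fell from 8 (of all genes 10.6%) to 4 with no filter (4.73%). Leaving out 1 array in turn gave 4 to 15 in WT, 4 to 9 in KI and 10 to 24 over both genotypes. With the scanner-file samples, an alternative added after seeing the data, it gave 2 to 12 in WT, 5 to 21 in KI and 10 to 26 over both genotypes (12, 21 and 26 without array C), and 0 to 1 for genotype at 1 week. With the replicate number as a block, members called were 0 in each genotype comparison and for age by genotype, 10 in WT, 6 in KI and 17 over both genotypes; the numbers did not pair the arrays. The fit to only the arrays compared was not run over both genotypes or for age by genotype, which use all arrays. With 1 array left out, the share of all genes called with age was also highest where most members were called. Such a fit leaves 1 array in a group, and its counts of members do not set them apart from other genes. The cause of these changes in the counts was not tested. Mybphl on array A was not well above background, so its level there is a bound.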
